A study of Mus musculus with 8 samples.

Results

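The Hox clusters A to D of NIH3T3 cells were examined by ATAC-seq, which maps open chromatin as places where the Tn5 transposase could insert sequencing adapters. NIH3T3 is an immortalised line of mouse embryo fibroblasts. The clusters were taken as 4 windows of the mouse genome build mm9: HoxA at chr6:52090000-52230000, HoxB at chr11:96040000-96240000, HoxC at chr15:102740000-102880000 and HoxD at chr2:74490000-74620000. All peaks that overlapped a window were kept, and peaks of different libraries overlapping by 1 bp or more were joined into 1 region. This gave 55 regions of the 45915 regions in the whole genome, in 610 kb that hold the 38 Hox genes considered, 10 in HoxA, 10 in HoxB, 9 in HoxC and 9 in HoxD. The cells had been kept for 24 h on G128 or on G2, names that the labels do not explain, in a study of polyvinyl alcohol and gelatin hydrogels. Each culture had 2 ATAC-seq libraries, and each library its own peak list. Values of the libraries are given with replicate 1 before replicate 2 of a group. The labels do not say that the replicates were separate cultures, so the spread between them may be technical. The 4 RNA libraries were not analysed here, so neither Hox gene expression nor the markers of the cell line were examined.

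Hox genes encode homeodomain transcription factors that give cells of the body axis their position. They lie side by side in clusters, and their order along the chromosome follows the order in which they act from head to tail, with low-numbered genes acting in front and high-numbered genes behind. Genes of equal number in different clusters are paralogues. Cells keep parts of a cluster active under Trithorax proteins and other parts silent under Polycomb proteins, and fibroblasts are known to retain a pattern of active Hox genes that reflects where in the body they came from. In RefSeq's order of these genes, all 38 of which were matched by symbol, the lower coordinates hold Hoxa2 in the HoxA window but Hoxb13, Hoxc13 and Hoxd13 in the others. The higher coordinates hold Hoxa13, Hoxb1, Hoxc4 and Hoxd1. This order comes from the build GRCm38.p6 and was used only for which gene lies towards which end. No peak was assigned to a gene, because no annotation of mm9 was used here.

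RefSeq promoters, 250 bases before to 50 after a gene's start, were found for 22 of the 38 genes, in 24 entries. Those of 4 outermost genes are shown, because the ends of a cluster differed in their peaks. Hoxa2 lies towards the end of HoxA that held most peaks and Hoxa13 towards the end that held few. Hoxb1 and Hoxd1 lie towards the ends of their windows with the longest stretches without a peak. The positions are on GRCm38.p6 and cannot be read against the mm9 positions of the peaks. Capitals mark each CG dinucleotide, the site of DNA methylation in mammals. Hoxa2 is at chr6:52164782-52165081 on the minus strand, Hoxa13 at chr6:52260831-52261130 on the minus strand, Hoxb1 at chr11:96365508-96365807 on the plus strand and Hoxd1 at chr2:74762730-74763029 on the plus strand.
Hoxa2: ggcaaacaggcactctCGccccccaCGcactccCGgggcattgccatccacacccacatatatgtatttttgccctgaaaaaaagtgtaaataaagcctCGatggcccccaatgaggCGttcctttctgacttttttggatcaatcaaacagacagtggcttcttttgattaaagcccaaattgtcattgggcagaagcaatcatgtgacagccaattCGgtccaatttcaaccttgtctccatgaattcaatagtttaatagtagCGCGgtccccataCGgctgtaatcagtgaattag
Hoxa13: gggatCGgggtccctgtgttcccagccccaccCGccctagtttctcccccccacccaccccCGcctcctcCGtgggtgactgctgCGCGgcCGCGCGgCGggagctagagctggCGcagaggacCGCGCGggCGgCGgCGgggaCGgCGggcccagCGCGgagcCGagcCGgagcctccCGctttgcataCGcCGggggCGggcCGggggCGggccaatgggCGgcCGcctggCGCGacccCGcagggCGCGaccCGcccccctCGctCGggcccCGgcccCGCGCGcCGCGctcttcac
Hoxb1: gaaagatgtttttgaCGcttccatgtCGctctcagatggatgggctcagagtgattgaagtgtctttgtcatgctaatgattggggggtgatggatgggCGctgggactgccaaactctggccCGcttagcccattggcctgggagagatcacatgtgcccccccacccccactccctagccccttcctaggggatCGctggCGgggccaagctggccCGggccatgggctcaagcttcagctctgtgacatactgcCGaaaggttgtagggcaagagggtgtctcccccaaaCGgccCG
Hoxd1: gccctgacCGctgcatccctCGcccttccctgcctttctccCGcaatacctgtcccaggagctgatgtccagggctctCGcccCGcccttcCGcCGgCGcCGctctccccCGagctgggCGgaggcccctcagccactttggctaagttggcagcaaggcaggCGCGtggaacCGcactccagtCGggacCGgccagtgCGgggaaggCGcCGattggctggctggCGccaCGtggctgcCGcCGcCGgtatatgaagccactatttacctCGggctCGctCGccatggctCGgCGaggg

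These 4 promoters differed widely in base composition. Hoxa13, a gene of the limb and the hind end of the body, had 45 CG dinucleotides in its 300 bases and a G+C content of 81.0%. Hoxd1 had 29 and 69.7%, Hoxb1, a gene of the hindbrain, 10 and 59.3%, and Hoxa2, which patterns the hindbrain and the second pharyngeal arch, 9 and 45.7%. Over the 24 entries of Hox genes the median was 14.5 CG dinucleotides, with a range of 4 to 45, against 7 over all 32851 promoters of the table. The medians of the HoxA entries (17.5, 10 entries) and of the HoxD entries (20, 10 entries) stood above that value. So did the median of the 3 HoxB entries (13), from the window with the fewest peaks per kb. Some single entries lay below 7, those of Hoxa9 (4), Hoxd4 (4) and Hoxd8 (6) and one of the entries of Hoxd11 (4). The single HoxC entry, Hoxc4, had 9. The letters TGATNNAT, the core recognised by Hox proteins together with their cofactor Pbx, were searched on both strands. They occurred in 4 of the 24 entries (16.7%), those of Hoxa2, Hoxb1, Hoxb8 and one of the entries of Hoxd11, against 8.85% of all promoters. The letters TGANTCA, bound by AP-1 and alike on both strands, occurred in 1 of the 24 (4.17%), an entry of Hoxd11, against 7.81% of all promoters. A match in these letters is a description of the sequence and not a binding site.

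The height of a peak is given as its summit over the background, the number of overlapping sequenced intervals at its highest point divided by the mean the peak caller used as background in that library. The background mean was 1.05 and 1.41 intervals on G128, and 1.10 and 1.37 on G2. The lists held 32540 and 37695 peaks on G128 and 42358 and 41585 on G2. The lowest summit listed in a library was 18.2 to 18.97 times the background, and the authors' signal of a listed peak was never below 20. A stretch without a peak is one where nothing was listed, and its height was not measured.

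The 4 clusters were open to very different degrees, and HoxA stood far above the others. HoxA held 32 of the 55 regions, HoxC and HoxD 9 each and HoxB 5. Peaks in the HoxA window numbered 24 and 27 on G128 and 27 and 28 on G2. HoxB held 3 and 3 on G128 and 3 and 5 on G2, HoxC 6 and 8 and then 7 and 7, and HoxD 6 and 6 and then 9 and 8. The lowest HoxA count was thus above the highest count of every other window, although the HoxB window is the longest at 200 kb against 140 kb for HoxA. Peaks covered 6.59 to 10.96% of the HoxA window, 1.40 to 2.29% of HoxC, 1.63 to 2.86% of HoxD and 0.373 to 0.639% of HoxB over the 4 libraries. In every library the order by percent covered put HoxA first and HoxB last, while HoxC lay above HoxD in G128 replicate 2 and below it in the other libraries.

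**Figure D1:**
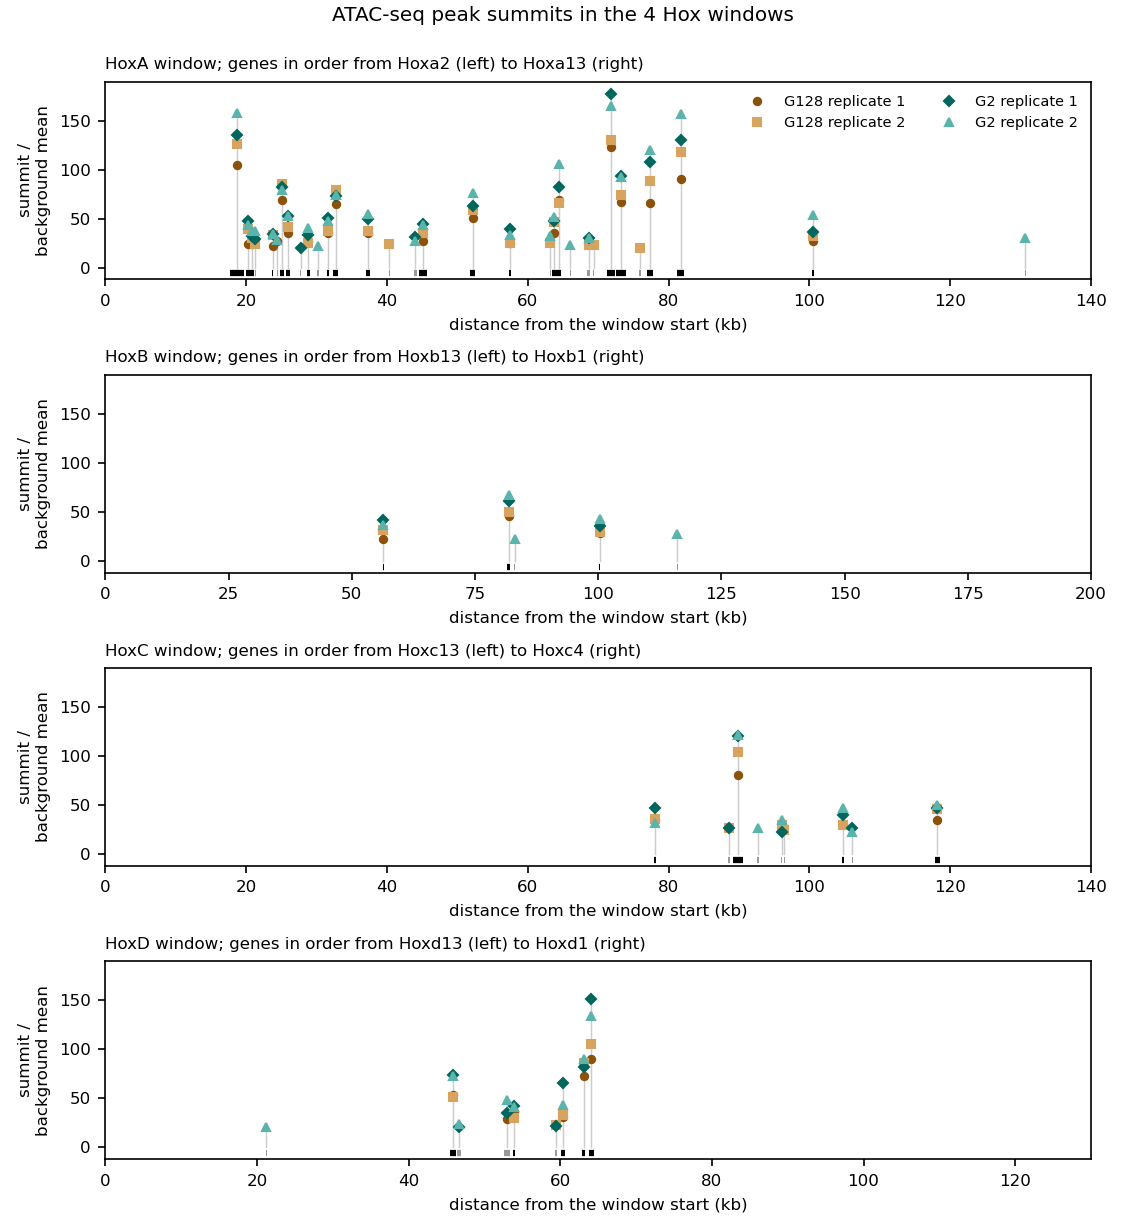
Peak summits in the 4 Hox windows. The horizontal axis is the distance from the window start in kb and the vertical axis the summit over the background mean; each marker is the summit of 1 library in a merged region, drawn at the region's midpoint. Black bars under the zero line are regions with a peak in all 4 libraries and grey bars regions missing from at least 1. HoxA is crowded from 17.7 kb on, and the highest summits reach 177 times the background.

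HoxA, HoxC and HoxD were denser in peaks than their chromosomes and HoxB was sparser than its own, each in 4 of 4 libraries. HoxA had 17.1 and 19.3 peaks per 100 kb on G128 and 19.3 and 20 on G2, where all of chromosome 6 had 1.34 and 1.53, and 1.71 and 1.68. HoxB had 1.5 peaks per 100 kb in 3 libraries and 2.50 in G2 replicate 2, where chromosome 11 had 2.36 to 2.96. The whole genome had 1.23 and 1.43 peaks per 100 kb on G128 and 1.61 and 1.58 on G2, so HoxB lay above the genome in 3 of 4 libraries, and below it in G2 replicate 1. HoxC had 4.29 to 5.71 against 1.62 to 2.15 on chromosome 15, and HoxD 4.62 to 6.92 against 1.37 to 1.82 on chromosome 2. Chromosome lengths were read as the end of the last peak. In bins of 10 kb, 9 of 14 bins of HoxA held a region found in all 4 libraries, 3 of 20 in HoxB, 5 of 14 in HoxC and 3 of 13 in HoxD. Over the whole genome 8.90% of bins did, fewer than the 15% of HoxB.

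The flanks of the HoxA and HoxD windows were sparser in peaks than their chromosomes, whereas HoxB lay beside a peak-rich stretch. In the flanks as long as the window itself, HoxA had 1 or 2 peaks on the lower side and 0 on the upper side in all 4 libraries. On the lower side this was 0.714 peaks per 100 kb on G128 and 1.43 on G2, against 1.34 to 1.71 on chromosome 6. HoxD had 1 peak on the lower side and 1 or 2 on the upper side, or 0.769 to 1.54 per 100 kb against 1.37 to 1.82 on chromosome 2. In such short flanks 1 or 2 peaks are thus not far below the density of the chromosome. HoxB had 10 to 15 peaks on the lower side, past its Hoxb13 end, and 1 on the upper side, and HoxC had 2 on the lower side and 8 to 10 on the upper side, past its Hoxc4 end. Windows widened by 20 kb on both sides gave the same ratio of peaks between the cultures as the windows themselves, 1.13.

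**Figure D2:**
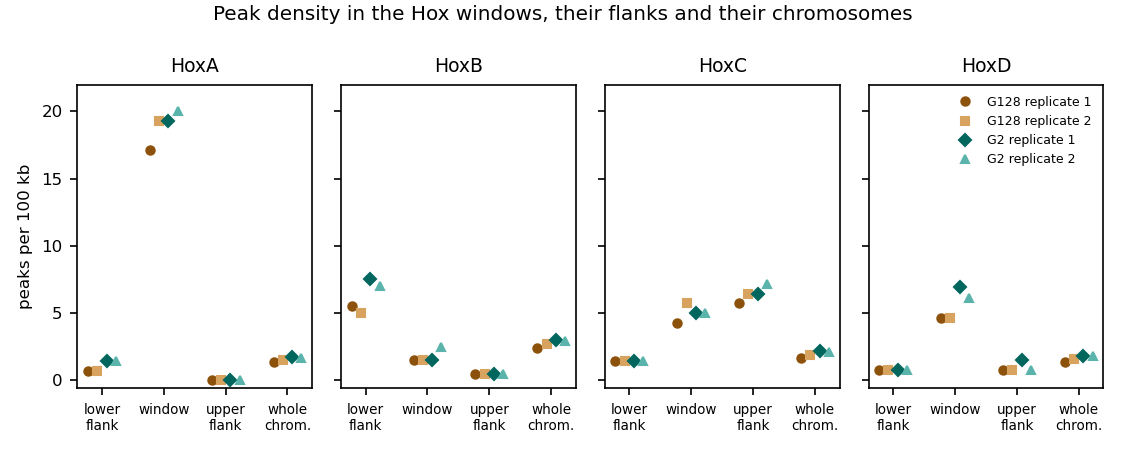
Peaks per 100 kb in each Hox window, in the flank of equal length on either side and on the whole chromosome, with 1 marker per library. The 4 libraries of the HoxA window sit between 17.1 and 20 peaks per 100 kb, while its upper flank is at 0 in all of them.

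Within HoxA the open part was 1 compact block towards the Hoxa2 end. It ran from chr6:52107698 to chr6:52172223, 64.5 kb or 46.1% of the window, and held 30 of the 32 regions and 19 of the 20 that were found in all 4 libraries. Peaks covered 14.0 and 21.5% of this block on G128 and 20.7 and 23.1% on G2. Neighbouring shared regions in it were 0.057 to 6.99 kb apart, with a median of 2.49 kb. Only 2 regions lay beyond the block on the side of Hoxa13. One, at chr6:52190420-52190675, was weak but present in every library, with summits of 27.5 and 31.9 times the background on G128 and 36.4 and 53.3 times on G2. The other, at chr6:52220586-52220776, had a peak in G2 replicate 2 alone, at 29.96 times the background.

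The 3 highest summits of HoxA stood at the edges of this block and in its upper part. The highest was inside the upper part, at chr6:52161207-52162394, with 123 and 130.4 times the background on G128 and 177 and 165 times on G2. The next was the widest region of all 4 clusters, chr6:52107698-52109671, 1974 bp long and wider than 97.9% of all shared regions, with 104 and 126 times on G128 and 136 and 158 times on G2. It formed the edge of the block on the Hoxa2 side. The opposite edge was chr6:52171261-52172223, with 90.1 and 118 times on G128 and 130.1 and 156 times on G2. In these 3 regions the G2 values exceeded the G128 values without overlap, as in 67.6% of all shared regions of the genome. The middle of the block, between chr6:52123042 and chr6:52153396, held 4 shared regions, with summits of 24.8 to 76.0 times the background over all libraries.

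HoxC was open in its part towards Hoxc4 and had no peak in its part towards Hoxc13. All 9 of its regions lay between chr15:102817900 and chr15:102858580, 40.7 kb or 29.1% of the window. The strongest was chr15:102829090-102830614, 1525 bp long, with 80.6 and 104 times the background on G128 and 120.1 and 122 times on G2. The other 3 shared regions were lower and narrower. Region chr15:102857799-102858580 had 35.1 and 46.1 times on G128 and 47.3 and 49.7 times on G2. Region chr15:102844641-102844949 had 30.4 and 29.8 times on G128 and 40.02 and 46.8 times on G2, and chr15:102817900-102818162 had 35.1 and 35.4 times on G128 and 47.3 and 31.4 times on G2. In the last of these the groups overlapped. In the other 2 the G2 values were higher without overlap, which 67.6% of all shared regions were too.

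HoxD was open in its middle and had no region shared by all libraries towards either Hoxd13 or Hoxd1. Its 5 shared regions lay within 18.9 kb, from chr2:74535478 to chr2:74554405, which is 14.6% of the window. The strongest was the outermost on the Hoxd1 side, chr2:74553824-74554405, with 90.1 and 106 times the background on G128 and 151 and 134 times on G2. Beside it, chr2:74552903-74553314 had 73.0 and 85.7 times on G128 and 81.9 and 90.6 times on G2, with overlapping groups. The widest, chr2:74535478-74536275 with 798 bp, stood at the Hoxd13 side of this open part and had 53.1 and 51.0 times on G128 and 73.7 and 73.1 times on G2. Towards Hoxd13 the window held 1 more region, chr2:74511149-74511316, with a peak in G2 replicate 2 alone at 20.5 times.

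HoxB had 3 shared regions, far apart, and 0 of the 3 had a mean summit above the median of all shared regions of the genome. The strongest was chr11:96121559-96122057, with 45.5 and 49.6 times the background on G128 and 60.9 and 67.2 times on G2. The others were chr11:96096335-96096534, with 22.8 and 31.2 times on G128 and 41.8 and 36.5 times on G2, and chr11:96140170-96140388, with 28.5 and 29.0 times on G128 and 35.5 and 42.4 times on G2. They were 200 to 499 bp wide and lay 18.1 and 25.02 kb apart, in the lower and middle part of the window. In each of the 3 the G2 values exceeded the G128 values without overlap, as in 67.6% of all shared regions of the genome.

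The stretches without a peak lay in the same places in both cultures, apart from a few weak peaks. In HoxB no library had a peak from chr11:96156126 to the upper end of the window, 83.9 kb on the side of Hoxb1, and the next peak lay 119 kb past the last one. At its other end, on the side of Hoxb13, a further 56.3 kb (28.2% of the window) had no peak in any library. In HoxC none had a peak over the first 77.9 kb, on the side of Hoxc13 and 55.6% of the window, nor over the last 21.4 kb, on the side of Hoxc4. In HoxD none had one over the last 65.6 kb, on the side of Hoxd1 and 50.5% of the window. In HoxA the longest stretch was 29.9 kb, from chr6:52190676 to chr6:52220585, on the side of Hoxa13. Those of HoxB, HoxC and HoxD reach the edge of the window, so their length depends on where the window ends. Followed past the edge to the nearest peak of any library, they measured 119, 147 and 109 kb. Taken library by library, the longest stretch of HoxC was 77.9 kb in all 4 and that of HoxD 65.6 or 65.7 kb. In HoxA it was 39.4 kb in both libraries on G128, 39.3 kb in G2 replicate 1 and 29.9 kb in G2 replicate 2. In HoxB it was 99.6 kb in 3 libraries and 83.9 kb in G2 replicate 2. These last differences each came from 1 weak peak in G2 replicate 2, at 29.96 times the background in HoxA and at 27.8 times in HoxB, at chr11:96155935-96156125. The HoxA stretches of 39.3 and 39.4 kb also reach the edge of the window. Followed to the next peak of the same library, they measured 399 and 265 kb on G128 and 265 kb in G2 replicate 1.

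Of the 55 regions, 32 (58.2%) had a peak in all 4 libraries, where 60.5% of all merged regions of the genome did. The other 23 had a lower median width, 169 bp against 569 bp for the shared ones, and their summits did not exceed 48.2 times the background. The ranges overlapped, since shared regions were as narrow as 150 bp and had summits as low as 21.8 times. A region spans all peaks joined in it, so peaks from more lists can make it wider. A peak in only 1 library made up 12 of them, 7 from G2 replicate 2, 4 from G128 replicate 2, 1 from G2 replicate 1 and 0 from G128 replicate 1. These 12 were 21.8% of the Hox regions, where 15.5% of all merged regions were in 1 library. Over the genome 6.46% were in G2 replicate 2 alone, 2.27% in G128 replicate 2, 6.14% in G2 replicate 1 and 0.621% in G128 replicate 1. The shared Hox regions were of moderate height for open chromatin in these cells. Their median summit was 35.1 and 43.6 times the background on G128 and 51.9 and 53.0 times on G2, below the medians of 50.3, 58.1, 67.3 and 68.7 times over all 27768 shared regions. By mean summit, 13 of the 32 lay above the median of all shared regions, 9 of 20 in HoxA, 0 of 3 in HoxB, 1 of 4 in HoxC and 3 of 5 in HoxD. The highest reached the percentile of 81.6, and the best rank by the authors' signal was 1501, for chr6:52107698-52109671 in G2 replicate 2.

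The study's design text describes the cultures as differing in adhesion, which was not measured in these files. The comparison here is of G2 with G128. The 4 windows together held 39 and 44 peaks on G128 and 46 and 48 on G2. The means were 41.5 ± 3.54 and 47.0 ± 1.41 (SD, n = 2 each), a ratio of 1.13, below the ratio of 1.20 over the whole genome. The groups did not overlap, and p was 0.333 by an exact permutation test (two-sided), which with 6 assignments can go no lower. Peaks covered 14059 and 20178 bp on G128 and 20035 and 23536 bp on G2, so that G128 replicate 2 lay above G2 replicate 1. The ratio of covered bases was 1.27, against 1.24 over the whole genome, and the exact permutation test gave p = 0.667. By window, the ratio of peaks was 1.08 in HoxA, 1.33 in HoxB, 1.00 in HoxC and 1.42 in HoxD. HoxD was the only window whose groups did not overlap, with 6 peaks in both libraries on G128 against 8.5 ± 0.707 on G2 (SD, n = 2 each, exact permutation p = 0.333). Over the whole genome the peak counts of the groups did not overlap either. The HoxD regions with peaks on G2 alone were weak, at 20.5 to 24.1 times the background. The lowest listed summits of the libraries were 18.2 to 18.97 times. In G2 replicate 1, chr2:74542641-74543343 counted as 2 peaks.

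Of the 55 Hox regions, 11 (20%) had a peak on G2 and none on G128, where 20.9% of all merged regions did. Another 4 (7.27%) had a peak on G128 and none on G2, against 3.26% of all. Those present in both replicates of G2 and absent from both of G128, named G2-only here, numbered 3 of 55 (5.45%), against 8.32% of all merged regions of the genome. The reverse, G128-only, numbered 0, against 0.37% of all. The 3 regions were weak and lay inside the open part of their clusters. In HoxA it was chr6:52133790-52134217, with 30.9 and 27.0 times the background in G2 replicates 1 and 2. In HoxC it was chr15:102846041-102846182, with 26.4 and 22.6 times, and in HoxD chr2:74536433-74536852, with 20.9 and 24.1 times, next to the shared region chr2:74535478-74536275. Under other thresholds and overlap rules G2-only regions numbered 2 to 7, and with 1 library left out 4 to 10. The share over all merged regions was not computed under these settings, so these counts cannot be read as particular to the Hox windows.

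In the shared regions, summits stood higher on G2, as they did over the genome. The G2 values exceeded the G128 values without overlap in 28 of the 32 shared Hox regions and lay below them without overlap in 0. Over all shared regions this held for 67.6% and 2.79%. The ratio of the median summits of G2 to G128 was 1.33 in the Hox windows, with 52.4 ± 0.793 against 39.3 ± 5.996 times the background (SD, n = 2 each, exact permutation p = 0.333). Over all shared regions the library medians rose too, from 50.3 and 58.1 times on G128 to 67.3 and 68.7 times on G2. What lay behind this shift over the genome was not tested. The 4 regions with overlapping groups were chr6:52114757-52115422 and chr6:52122345-52123042 in HoxA, chr15:102817900-102818162 in HoxC and chr2:74552903-74553314 in HoxD. They were also the 4 lowest of the 6 regions whose difference was below 0 after the centring described next.

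**Figure D3:**
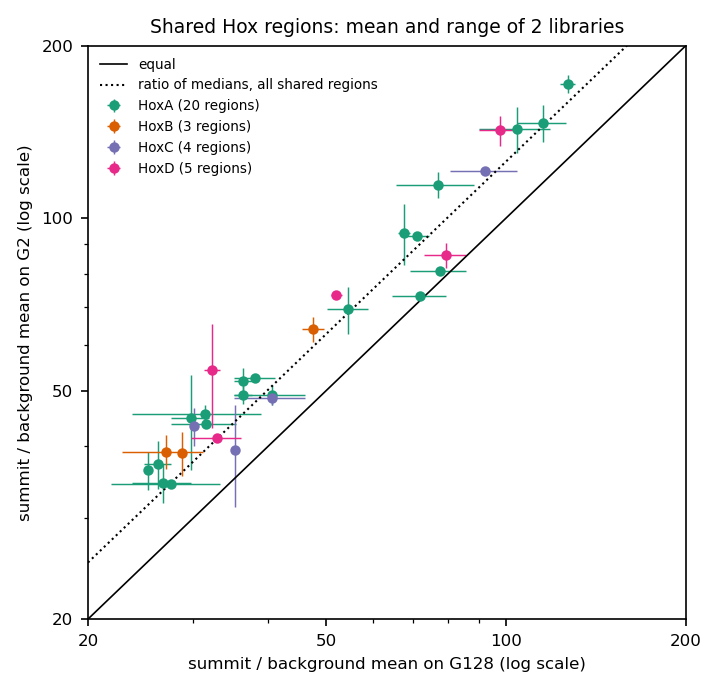
Mean summit over the background on G128 (horizontal, log scale) and on G2 (vertical, log scale) in the 32 shared Hox regions, with bars from the lower to the higher of the 2 libraries of a group. The solid line marks equal heights and the dotted line the ratio of the medians over all shared regions. All 32 points lie above the solid line and most lie near the dotted line.

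To compare the regions with the genome, each library was centred on its median over all shared regions. A difference of 0 thus means the same shift as that of the library medians. The centred log2 difference of G2 minus G128 was tested with limma over all 27768 shared regions, with Benjamini-Hochberg adjustment. Of the 32 Hox regions 0 passed an adjusted p of 0.05 in either direction, as did 0 of all regions, or 0%. At an unadjusted p of 0.05, 0 of the 32 passed against 14.2% of all regions. When limma's spread was allowed to follow the mean, a setting added later, 0 of the 32 passed against 0.601% of all regions higher and 0.864% lower on G2. Without centring, 9 of the 32 passed as higher on G2, against 21.1% of all regions.

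The centred differences of the Hox regions were small and mostly above 0. Their median was 0.10 against 0.01 over all shared regions, and 26 of 32 lay above 0, where 52.2% of all regions did. Regions of the same 4 libraries are not replicates of a culture. The count above 0 was 21 without G128 replicate 1 and 21 without G2 replicate 2. The centred medians of the libraries were -0.52 and -0.42 on G128 and -0.38 and -0.37 on G2 (exact permutation p = 0.333). By window, the median difference was 0.12 in HoxA (17 of 20 above 0), 0.10 in HoxB (3 of 3), 0.00 in HoxC (2 of 4) and 0.16 in HoxD (4 of 5). The range from -0.30 to 0.39 was within that of ordinary regions, whose 5th and 95th percentiles were -0.45 and 0.36, except for 1 region. That region was chr2:74550059-74550577 in HoxD, with 31.3 and 33.3 times the background on G128 and 65.5 and 43.1 times on G2. Its centred difference was 0.39 ± 0.20 (SE, limma adjusted p = 0.412), and the 2 G2 libraries lay further apart than the groups' nearest values. It was 0.07 without G2 replicate 1 and 0.70 without G2 replicate 2.

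The extreme centred differences of the other windows did not pass the test either. In HoxA the largest was at chr6:52166904-52167844, with 65.4 and 88.6 times the background on G128 and 108 and 121 times on G2, a ratio of 1.49 and a centred difference of 0.25 ± 0.15 (SE, limma adjusted p = 0.479). The lowest in HoxA, and over the 4 clusters, was at chr6:52122345-52123042, with 64.5 and 79.4 times on G128 and 72.8 and 73.8 times on G2. Its ratio was 1.02 and its centred difference -0.30 ± 0.14 (limma adjusted p = 0.372, the lowest of the Hox regions). In HoxB the largest was 0.22 ± 0.16 at chr11:96096335-96096534, and in HoxC 0.19 ± 0.15 at chr15:102844641-102844949. The lowest in HoxC was -0.20 ± 0.20 at chr15:102817900-102818162, which turned to 0.11 without G2 replicate 2 and was -0.51 without G2 replicate 1. The lowest in HoxD was -0.21 ± 0.14 at chr2:74552903-74553314. The strongest regions of the 4 windows differed by 0.10 ± 0.14 (HoxA, chr6:52161207-52162394), 0.10 ± 0.14 (HoxB, chr11:96121559-96122057), 0.07 ± 0.14 (HoxC, chr15:102829090-102830614) and 0.21 ± 0.14 (HoxD, chr2:74553824-74554405). A difference that does not pass the test is not shown to be absent.

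**Figure D4:**
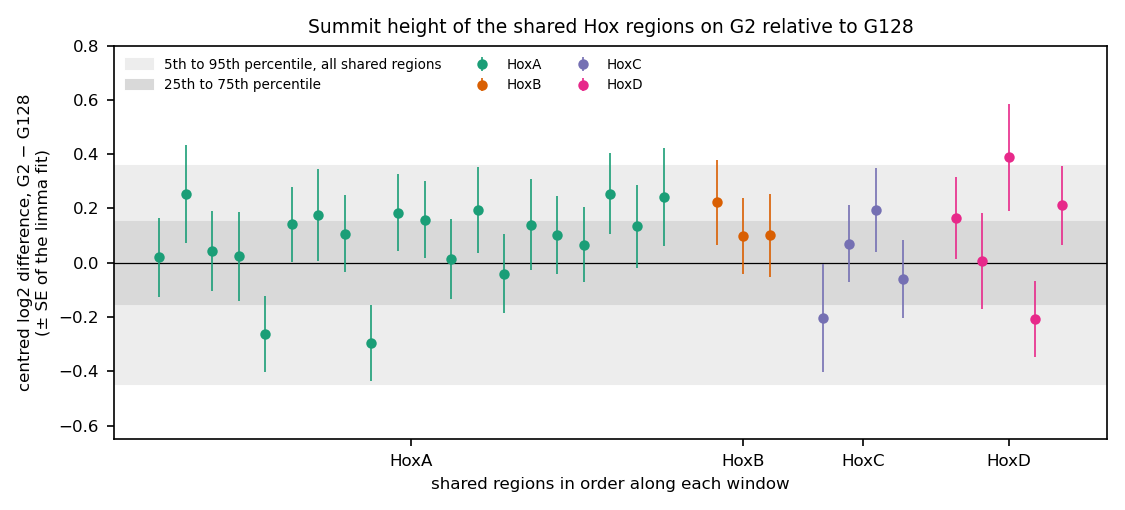
Centred log2 difference in summit height, G2 minus G128, of the 32 shared Hox regions in their order along each window, with the standard error of the limma fit. The darker band spans the 25th to 75th and the lighter band the 5th to 95th percentile over all 27768 shared regions. All but 1 HoxD region lie inside the lighter band.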

How the data were processed

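ATAC-seq was analysed in 4 NIH3T3 libraries, 2 on G128 and 2 on G2, grouped by sample title. Per the submitters' processing notes the build was mm9 and the tools named, without their roles, were Bowtie2 2.2.5, SAMtools 1.7, Genrich 0.5 and deepTools. The sources used here do not give how reads were shifted or duplicates handled, and the effect of either on peak height was not tested. The lists deposited by the authors, called per library, hold for each peak a score, a signal, −log10 p and q-values and a summit offset. The deposited score was not used, and the deposited signal served to rank peaks within a list. The summit height came from the steps of the deposited −log10 p-values: normal quantiles of the lowest 100 distinct values were linear in the log of successive whole numbers, and all recovered pileups lay within 0.00179 of a whole number.

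Regions were peaks of any list sharing 1 bp. Values per library were compared by two-sided exact permutation tests, and log2 summits of shared regions by limma 3.58.1 in R 4.3.3 over all shared regions. The recovery was run on p-values simulated from its own fitted model, and the fit on counts simulated with an assumed spread. Neither run could show whether these models hold for the deposited lists. Other software was pandas 2.3.3, numpy 2.4.6, scipy 1.17.1 and Python 3.11.15. Named regions were, per window, the 3 highest and the widest, the largest and the lowest centred difference, and those of a single group; others are named to place them. The windows, genes and tests were chosen with earlier results of these data known. Alternatives concerned overlap, thresholds, window width, scaling, a block for the replicate number, and each library left out in turn.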

Additional observations from a re-analysis of the deposited data

How the results depend on the processing

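Keeping peaks whose p was 10 or more times smaller than the weakest listed gave a ratio of peaks of 1.49 between G2 and G128, 7 G2-only regions, and stretches without a peak of 39.3 kb in HoxA and 99.6 kb in HoxB. A summit of at least 30 times the background gave 5 G2-only regions. A reciprocal overlap of 50% gave 1 G128-only region. Calling a base free of peaks where at least 2 lists had none gave stretches of 39.4, 99.6, 77.9 and 65.7 kb in HoxA to HoxD. Without each library in turn, G2-only regions numbered 4 to 10, G128-only regions 0 to 4, and the longest stretches were 29.9 to 39.3 kb in HoxA and 83.9 to 99.6 kb in HoxB, longer without G2 replicate 2. G2-only regions numbered 6 without G128 replicate 2, 10 without G2 replicate 1 and 6 without G2 replicate 2. G128-only regions numbered 4 without G128 replicate 1 and 1 without G2 replicate 2. Fewer libraries then have to be met. For none of these alternative counts of G2-only and G128-only regions was the share over all merged regions computed. The ratio of covered bases was 1.08 without G128 replicate 1 and 1.55 without G128 replicate 2. Without centring, 9 shared Hox regions passed limma's adjusted p of 0.05, all higher on G2, and the median log2 difference was 0.44, since the genome's shift of 0.34 then stays in. With the replicate number as a block (replicate block), 0 Hox regions passed, against 0.987% of all shared regions higher and 2.36% lower on G2, and the median was 0.10; the deviations of same-numbered libraries correlated by 0.00279, so the numbers were not taken to pair them. The other alternatives for these counts and ratios stayed within the spread between replicates or 1.5 times. The median centred difference was 0.05 without G128 replicate 2 and 0.06 without G2 replicate 2. Of 16 named shared regions, 5 changed sign without 1 library: chr6:52107698-52109671 (-0.01 without G128 replicate 1, -0.08 without G2 replicate 2), chr11:96140170-96140388 (-0.01 without G2 replicate 2), chr15:102817900-102818162 (0.11 without G2 replicate 2), chr15:102829090-102830614 (-0.01 without G128 replicate 1) and chr15:102857799-102858580 (0.03 without G128 replicate 2).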
